A study of Homo sapiens with 3 samples.

Results

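The ubiquitin-specific proteases (USP genes) and the ubiquitin-conjugating enzymes (UBE2 genes, also called E2 enzymes) were examined in a list of RNA peaks from an eCLIP of mouse PXR in human cells. Members were the peaks of that list with their centre in the span of a protein-coding gene of either family on chromosomes 1 to 22 and X, as the NCBI RefSeq annotation of GRCh38.p14 gives the spans. Genes were taken by symbol. USP genes were those named USP and a number, with or without a letter after it. UBE2 genes were those named UBE2 and a letter, with or without a number after it. Genes of either family with other symbols were not counted. This gave 84 genes, 50 USP and 34 UBE2. Their spans held 130 of the 21031 peaks of the list, 75 in USP genes and 55 in UBE2 genes. Each of the 130 was a distinct peak. The 4 pseudogenes whose symbols fit the naming pattern, USP41P, UBE2L1, UBE2L2 and UBE2L4, were not members.

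In eCLIP, RNA that UV light has crosslinked to a protein is precipitated with that protein and sequenced. LS174T cells, which derive from a human colon adenocarcinoma, carried transfected HA-tagged mouse Pxr in every library, taken 24 h after transfection and crosslinked at 254 nm with 400 mJ/cm2. PXR is a nuclear receptor that responds to bile acids and many drugs. As human cells, they also have their own PXR gene, NR1I2. The groups were the PXR immunoprecipitate with 2 replicates and an input with 1 library, and no untransfected cells or other genotype entered these results. The values below come from 1 peak list of the immunoprecipitate; no values of single libraries were used, so none has a replicate error and no test between groups could be made. The protocol names antibodies to PXR and to HA and a control IgG, without saying which of them each library used.

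Ubiquitin is a small protein that cells attach to other proteins to mark them for the proteasome, for sorting or for signalling. An activating enzyme (E1) charges it, a conjugating enzyme (E2) takes it over, and a ligase (E3) directs it to the substrate. Proteases such as the USPs, the largest family of deubiquitinases, take it off again. Some E2s carry ubiquitin-like modifiers (such as NEDD8 and ISG15) in place of ubiquitin.

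The sequences at gene starts are shown first because member peaks at starts had the highest median fold over background. Among the 65 members with a listed strand, a peak on that strand reached the first 30 bases of the span in 2 USP and 4 UBE2 genes. The first bases are those after the upstream end. Members without a listed strand are left out of this count, and no share over coding genes was set beside it. Each line gives the last 20 bases before the start and the first 30 after it, 5′ to 3′ on the strand of the gene, from RefSeq (GRCh38.p14), and capitals mark the bases inside the deposited peak.
USP12 (chr13:27171782-27171831, minus strand): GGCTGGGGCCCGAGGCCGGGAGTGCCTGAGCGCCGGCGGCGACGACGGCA
USP4 (chr3:49340024-49340073, minus strand): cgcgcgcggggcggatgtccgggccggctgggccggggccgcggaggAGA
UBE2S (chr19:55407759-55407808, minus strand): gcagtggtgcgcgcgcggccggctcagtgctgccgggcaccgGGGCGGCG
UBE2M (chr19:58558582-58558631, minus strand): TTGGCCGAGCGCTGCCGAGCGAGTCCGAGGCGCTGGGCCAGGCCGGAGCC
UBE2J1 (chr6:89352693-89352742, minus strand): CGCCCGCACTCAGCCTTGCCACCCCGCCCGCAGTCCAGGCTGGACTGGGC
UBE2D1 (chr10:58334986-58335035, plus strand): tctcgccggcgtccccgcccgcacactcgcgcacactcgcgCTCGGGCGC
In USP12, UBE2M and UBE2J1 the peak began before the annotated start, so all 50 bases lie in it. In USP4, UBE2S and UBE2D1 it began at base 28, 23 and 22 after the start, counted from 1 at the first base. The promoter windows of the members, 250 bases before to 50 after the upstream end of the span, were rich in G and C, with a median of 70.0% over 33 USP genes and 70.5% over 24 UBE2 genes, against 62.7% over 13792 coding genes. The GC box GGGCGG, searched on both strands, was in 26 of the 33 USP windows (78.8%) and in 19 of the 24 UBE2 windows (79.2%), against 58.5% of the coding windows. Among coding windows of genes with a peak the share was 72.1%, and among those without one 47.9%. AGGTCA, the letters of the nuclear receptor half-site, was in 1 USP window (3.03%) and 3 UBE2 windows (12.5%), against 11.7% of the coding windows. It was also searched on both strands. These are matches of letters and not sites of binding.

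Most of the 50 USP and of the 34 UBE2 genes had a peak. A peak centre lay in 32 of 50 USP genes (64.0%, Wilson interval at 95% 50.1 to 75.9%) and in 25 of 34 UBE2 genes (73.5%, 56.9 to 85.4%), against 41.7% of the 19974 coding genes. The share in USP genes minus that in UBE2 genes was -9.53 percentage points, with an interval of -27.8 to 10.9 that holds 0. These intervals treat genes as independent draws, which they are not, and no chance test was made. Expression was not measured here, so the amount of an RNA in the cells and its crosslinking cannot be told apart, and in a bulk line neither can fewer cells with an RNA and less RNA per cell.

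The families differ in gene length, and the share of coding genes with a peak differed by length. The median span was 70.1 kb in USP genes and 36.0 kb in UBE2 genes, against 24.2 kb in all coding genes. Among genes of 30 to 100 kb, 17 of 26 USP genes (65.4%) and 11 of 16 UBE2 genes (68.8%) had a peak, against 49.8% of coding genes of that length. At 100 kb or more it was 10 of 13 USP genes and 3 of 4 UBE2 genes, against 50.3% of coding genes. Short members were few. Of those from 10 to 30 kb, 4 of 8 USP genes and 7 of 9 UBE2 genes had a peak, against 42.1% of coding genes, and under 10 kb it was 1 of 3 USP genes and 4 of 5 UBE2 genes, against 28.3%. Per 10 kb of summed span there were 0.194 peaks in USP genes and 0.276 in UBE2 genes, against 0.157 in all coding genes. This density fell with gene length, so these pooled values also reflect the mix of lengths. Under 10 kb it was 0.688 in USP, 1.85 in UBE2 and 1.11 in coding genes. From 10 to 30 kb it was 0.324, 0.817 and 0.507 in the same order. From 30 to 100 kb it was 0.213, 0.234 and 0.227, and at 100 kb or more 0.164, 0.139 and 0.0606.

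**Figure D1:**
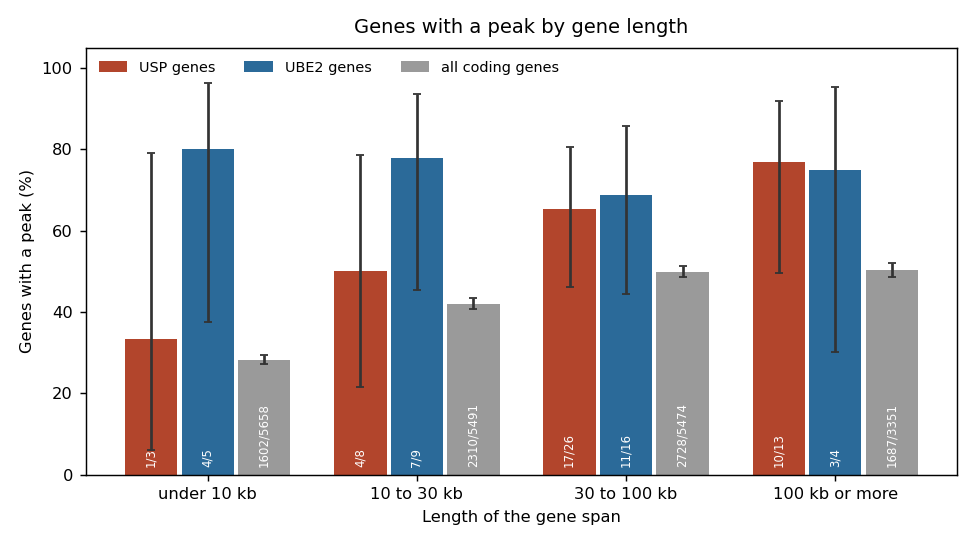
Share of genes with a peak centre (vertical axis, %) in 4 classes of gene length (horizontal axis), for USP genes, UBE2 genes and all coding genes. Bars start at 0, numbers in the bars are genes with a peak over genes in the class, and error bars are Wilson intervals at 95%; in the class of 30 to 100 kb the bars stand at 65.4, 68.8 and 49.8%.

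Peaks in UBE2 genes were deeper than those in USP genes. The depth of a peak is the number of reads under its summit, recovered from the deposited fold and −log10 p. Its median was 14 reads over the 75 USP peaks (order-statistic interval at 95% 13.0 to 17.0) and 23 over the 55 UBE2 peaks (20.0 to 28.0), against 22 over all peaks in coding genes. The intervals of the families did not overlap, but peaks of one gene share its RNA. Counted once per gene, by the deepest summit, the medians were 17.0 reads in USP genes (14 to 22) and 25.0 in UBE2 genes (18.0 to 42.0), with intervals that overlap, against 22 in coding genes. A summit of 50 or more reads was found in 1 USP gene (2.00%) and in 7 UBE2 genes (20.6%), against 6.45% of coding genes. Under 10 reads lay 13 of 75 USP peaks and 1 of 55 UBE2 peaks, against 1726 of 20266 coding-gene peaks, where a peak in several coding genes counts once for each. In the class of 30 to 100 kb the median peak held 14 reads in USP genes and 23 in UBE2 genes, against 21.0 in coding genes.

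The deposited fold, the authors' ratio of a summit to its local background, differed less between the families. Its median was 5.36 in USP peaks (order-statistic interval 5.10 to 5.84) and 5.90 in UBE2 peaks (5.17 to 6.76), against 5.92 in coding-gene peaks. The background itself, as reads in the 10 kb around a summit, had a median of 87.0 at USP peaks and 156 at UBE2 peaks, against 128 at coding-gene peaks. USP peaks were also narrower, with a median width of 248 bases (212 to 283), against 313 bases (274 to 380) for UBE2 peaks. These intervals overlap, and the median over coding-gene peaks was 268 bases. At most 2 bases wider than the narrowest width of the list, 200 bases, were 21 USP peaks (28.0%) and 7 UBE2 peaks (12.7%), against 17.5% of coding-gene peaks.

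**Figure D2:**
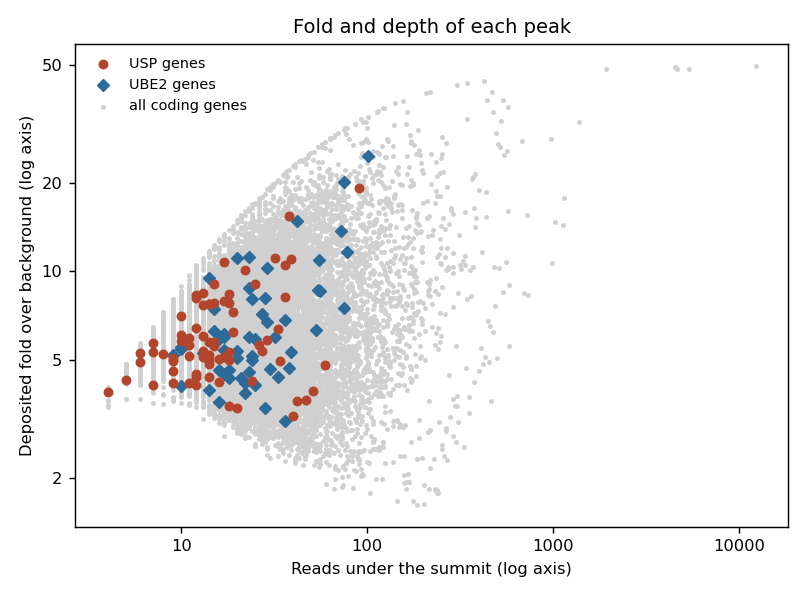
Each point is a peak, placed by the reads under its summit (horizontal, log axis) and its deposited fold over background (vertical, log axis), for USP genes, UBE2 genes and all coding genes. The deepest member peaks are those of UBE2S with 101 and 75 reads, USP22 with 90, UBE2H with 78 and UBE2M with 75, well inside the range of the coding genes.

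USP22, which removes ubiquitin from histone H2B within the SAGA coactivator complex, held the most peaks of any member and the deepest of any USP. It lies on chromosome 17 from 20999596 to 21043419, on the minus strand, and had 8 peaks. The deepest, at 21042514 to 21042956, held 90 reads (exact Poisson interval 72.4 to 111) at a fold of 19.2, with its summit 253 bases after a listed start, and 48.1% of the 187 reads in its 10 kb. At the other end of the gene 5 peaks lay within the last 3144 bases, with 42, 59, 40, 47 and 51 reads. Their folds were 3.23 to 4.81, and the 10 kb around them held 543 to 612 reads. Each summit there was lower than the one at the start, while the surrounding 10 kb held more reads. A peak of 34 reads lay between the ends. On the opposite strand a 200-base peak of 4 reads (1.09 to 10.2) overlapped the one at the start. In the order of deepest summits USP22 stood at 465 among the 8327 coding genes with a peak.

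UBE2S, which lengthens ubiquitin chains for the anaphase-promoting complex, had the deepest summit of all members. It lies on chromosome 19 from 55399745 to 55407788, on the minus strand, a span of 8.04 kb. Its peak at 55407467 to 55407766 held 101 reads (82.3 to 123) at a fold of 24.6, with its summit 155 bases after the start, and 64.3% of the 157 reads in its 10 kb. The other, at 55401353 to 55401648, held 75 reads (59.0 to 94.0) at a fold of 20.1, and its centre also lay in the span of the ribosomal protein gene RPL28, which is on the plus strand. Both UBE2S peaks were on the strand of UBE2S. UBE2C, which starts the chains that UBE2S lengthens, had 1 peak of 17 reads (9.90 to 27.2) at a fold of 5.42.

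UBE2H, UBE2M, UBE2R2, UBE2D3 and UBE2D2 also had a summit of 50 or more reads. UBE2H, an E2 of the CTLH ligase complex, held 78, 33, 29 and 21 reads in its 4 peaks. The deepest of these, at 129952336 to 129952881 on chromosome 7, had a fold of 11.6. UBE2M, which passes NEDD8 to cullins, held 75 and 53 reads in its 2 peaks, at folds of 7.54 and 6.35. With 2.90 kb it was the shortest member with a peak, so that its 2 peaks came to 6.90 per 10 kb. UBE2R2, which builds chains that lead to the proteasome, held 72, 28, 20 and 16 reads. Its deepest summit lay 535 bases after a listed start, at a fold of 13.7, where the antisense gene UBE2R2-AS1 also lies.

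UBE2D2 and UBE2D3 are close paralogues that serve many ligases. UBE2D2 held 55 and 20 reads, and UBE2D3 held 56, 36 and 32, the 36 and the 32 where LOC102723704 also lies. In each the deepest peak lay far inside the span but just after a listed inner start, 367 bases after it in UBE2D2 and 108 bases in UBE2D3. The UBE2D3 peak, 1118 bases wide, was the widest of all members. UBE2D1 had 1 peak of 14 reads at its start and UBE2D4 had 1 of 10 reads where POLR2J4 also lies. UBE2E3 of the sister group had 1 of 20 reads at a fold of 11.1, and UBE2E1 and UBE2E2 had none. UBE2B, an E2 of DNA damage tolerance, held 42 reads (30.3 to 56.8) at a fold of 14.8, while its paralogue UBE2A held 15. Paralogues of the UBE2D group resemble each other, so reads could be divided between them.

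**Figure D3:**
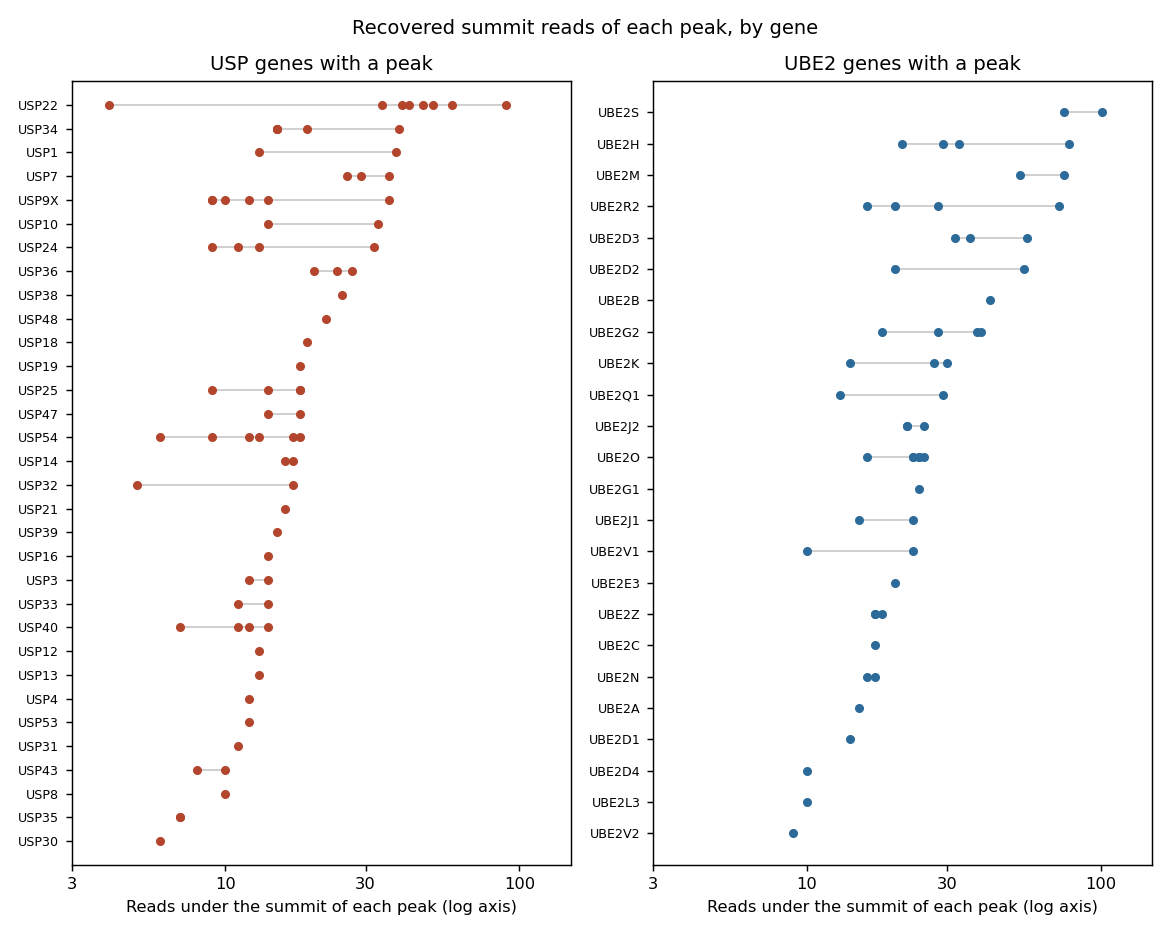
Each point is a peak, placed by its recovered reads under the summit (horizontal, log axis), in the row of its gene (vertical), for the 32 USP genes with a peak and 24 of the 25 UBE2 genes with one; a grey line joins the peaks of a gene and rows are ordered by the deepest peak. USP22 stands apart in the USP panel with 90 reads, against 39 in USP34, and 6 of the UBE2 genes drawn reach 50 reads.

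USP genes below USP22 had deepest summits of at most 39 reads. USP34, a very large protease known from Wnt signalling, spans 284 kb and held 39, 19, 15, 15 and 15 reads in 5 peaks, the deepest 122803 bases after its start at a fold of 11. USP1, which with WDR48 acts on PCNA and FANCD2, held 38 reads (26.9 to 52.2) at a fold of 15.4, with the summit 247 bases after a listed start, and 13 reads near its other end. USP12, which also pairs with WDR48, held 13 reads, and USP46, another such protease, had no peak. USP7, which acts on MDM2 and p53, held 36, 29 and 26 reads, with the summit of the 36 lying 215 bases and that of the 26 lying 623 bases after the start, where USP7-AS1 of the other strand overlaps. USP10, which also acts on p53, held 33 and 14 reads, and USP42 had no peak.

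The listed very large proteases, USP9X, USP24, USP34 and USP47, each had a peak, against 50.3% of coding genes of 100 kb or more. Of the other USP genes with spans of that length, USP15, USP37 and USP49 had none. USP9X had 6, of 36, 14, 12, 10, 9 and 9 reads, spread over 151 kb, and the deepest had a fold of 10.5. USP24 had 4, of 32, 13, 11 and 9 reads, and the deepest lay 295 bases from the high end of its span. USP47 had 18 and 14 reads. Apart from their deepest peaks, USP9X and USP24 held peaks of at most 14 reads.

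The other USP genes had deepest summits of 6 to 27 reads. The nucleolar protease USP36 held 27, 24 and 20 reads, all of them over 10 kb from either end of the span, USP38 held 25 and USP48 held 22. USP18, which removes ISG15, held 19 reads. Of the proteases tied to organelles or the proteasome, USP19 of the endoplasmic reticulum held 18 reads, USP14 of the proteasome 17 and 16, USP8 of endosomes 10 and USP30 of mitochondria 6 (2.20 to 13.1). USP54 held 6 peaks of 6 to 18 reads, while its relative USP53 held 1 of 12 reads and USP39, a spliceosome component without protease activity, 1 of 15. Of the other USP genes with a peak, USP32 reached a fold of 10.8 from 17 reads, and USP25 held 4 peaks of 9 to 18 reads and USP40 4 of 7 to 14. USP3, USP16, USP33, USP12, USP13, USP4, USP31, USP43, USP21 and USP35 held deepest summits of 7 to 16 reads.

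The E2s of the endoplasmic reticulum and of proteasome-directed chains had a peak in 6 of 6 genes, with a median span of 58.9 kb, against 49.8% of coding genes of 30 to 100 kb and 41.7% of all coding genes. UBE2G2 held 39, 38, 28 and 18 reads, UBE2K 30, 27 and 14, UBE2J2 25, 22 and 22, UBE2G1 24 and UBE2J1 23 and 15, besides UBE2R2. The E2s of chains for DNA repair and signalling were shallower, with 23 and 10 reads in UBE2V1, 17 and 16 in UBE2N and 9 in UBE2V2. Both peaks of UBE2V1 also lay in the readthrough gene PEDS1-UBE2V1. UBE2O, which acts as E2 and ligase in one protein, had 6 peaks of 16 to 25 reads, the most of any UBE2 gene. UBE2Q1 held 29 and 13 reads, UBE2Z 18, 17 and 17, and UBE2L3 10. With 5 or more peaks were USP22, USP54, USP9X and USP34 of the USP genes and UBE2O of the UBE2 genes, 5.95% of the members, against 4.54% of coding genes.

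Of the members, 18 USP and 9 UBE2 genes had no peak. These were USP2, USP5, USP6, USP11, USP15, USP20, USP26, USP27X, USP28, USP29, USP37, USP42, USP44, USP45, USP46, USP49, USP50 and USP51, and UBE2E1, UBE2E2, UBE2F, UBE2L5, UBE2L6, UBE2Q2, UBE2T, UBE2U and UBE2W. Of the histone proteases, USP44, USP49, USP51 and USP27X were without a peak and USP22, USP3 and USP16 had one. USP5 had none and USP13, its paralogue, 1 of 13 reads. Of the USP4 group, USP11 and USP15 had none. Of E2s for ubiquitin-like modifiers, UBE2M had peaks and UBE2F (NEDD8) and UBE2L6 (ISG15) had none. The list holds peaks above a threshold, so a gene without one may have too few reads to pass it.

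Peaks lay almost always on the strand of their gene. A strand was listed for 39 USP and 26 UBE2 genes. Of the peaks in them, 57 of 60 in USP genes (95%) and 44 of 44 in UBE2 genes were on that strand, against 94.3% in coding genes. Peaks on the opposite strand were thus found in 3 of 65 members (4.62%), against 4.76% of coding genes with a listed strand. These were in USP22, in USP54, where PPP3CB-AS1 lies on the strand of the peak, and in USP35, where GAB2 does. At least 1 peak on the strand of the gene was found in 26 USP genes (66.7%) and 19 UBE2 genes (73.1%), against 41.6% of coding genes with a listed strand. The centres of 65 USP peaks (86.7%) and 45 UBE2 peaks (81.8%) lay in no other gene of any class, near the 83.3% of coding-gene peaks. USP30, USP35, UBE2D4, UBE2E3 and UBE2V1 were the 5 members (5.95%) in which every peak shared its centre with another gene. No such share over coding genes was set beside them.

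Both families had peaks at starts, at downstream ends and between them. A peak was placed at a start when it lay on the strand of the gene with its summit 0 to 500 bases after a listed start, and at the end when its summit was within the last 2000 bases of the span. At starts lay 15 of 57 USP peaks (26.3%, Wilson interval 16.6 to 39.0%) and 14 of 44 UBE2 peaks (31.8%, 20.0 to 46.6%), against 24.8% of coding-gene peaks. At ends lay 12 USP peaks (21.1%) and 12 UBE2 peaks (27.3%), against 23%. A peak at a start was found in 15 of 39 USP genes (38.5%) and 14 of 26 UBE2 genes (53.8%), against 24.3% of coding genes with a listed strand. Among genes with a peak on their strand, the shares with one at a start were 57.7% for USP genes and 73.7% for UBE2 genes, against 58.5% for coding genes. Summits at starts lay 125 to 336 bases after the start in USP genes, with a median of 217, and 83 to 427 bases in UBE2 genes, with a median of 206.

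Within a gene the peak at the start had the higher fold more often than the greater depth. The members with peaks at a start and elsewhere were 18, and in 15 of these the fold was highest at the start (83.3%), against 70.9% of such coding genes. In 11 of the 18 the summit at the start was the deepest (61.1%), in 1 the depths were equal, and coding genes gave 48.4%. The median fold of member peaks was 8.12 at starts, 4.75 at ends and 5.34 elsewhere, and the median depth was 17.0, 22 and 18.0 reads. The 10 kb background ran in the opposite order to the fold, at medians of 63 reads at starts, 170 at ends and 130 elsewhere. The fold divides the summit reads by this background, so the order of one is not independent of the other. Of the 19 members without a listed strand 12 had a peak. The share over all coding genes was 41.7%, most of them with a listed strand, and that over coding genes without one was not taken. In 7 of the 12 a peak lay within 500 bases of the end of the span that is upstream on the strand of the peak. These were USP24, USP31, USP48, UBE2B, UBE2C, UBE2H and UBE2Q1, and no share over coding genes was set beside them.

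**Figure D4:**
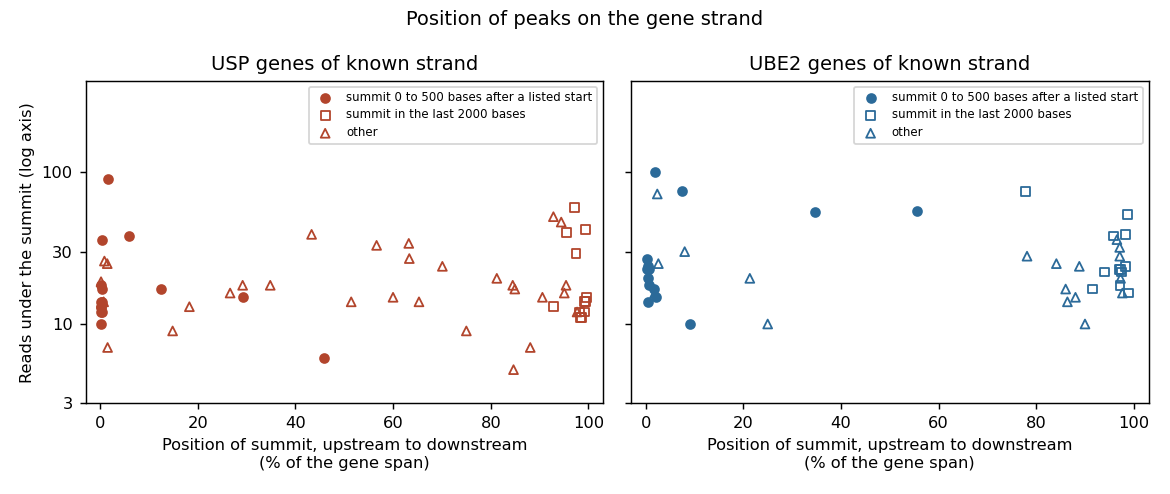
Summits of the 57 USP peaks and 44 UBE2 peaks on the strand of their gene, by position from the upstream (0%) to the downstream end (100%) of the span and by reads under the summit (vertical, log axis); symbols mark starts, the last 2000 bases and the rest. Points gather at both ends in both families, with 15 USP and 14 UBE2 peaks at listed starts, some of them inside the span.

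Some pseudogenes of E2 genes also held a peak. Of 71 pseudogenes named after USP or UBE2 genes, 4 held 1 peak each, and no share over all pseudogenes was set beside this. UBE2SP1 held 37 reads at a fold of 20.9 and UBE2SP2 held 14 reads at 11.7, both on chromosome 17 where 3 genes overlap. UBE2MP1 on chromosome 16 held 21 reads at a fold of 12.4, and UBE2D3P1 on chromosome 20 held 17 reads at 10.8. Their parent genes UBE2S, UBE2M and UBE2D3 were among the deepest UBE2 genes, and aligned reads could be divided between a gene and its copy, so depths of these 3 genes are uncertain.

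Other listed genes of the ubiquitin pathway, which are not the whole of it, had peaks in 60 of 82 (73.2%, Wilson interval 62.7 to 81.6%). This stands beside the 67.9% of the members and 41.7% of coding genes. The 82 genes had a median span of 54.2 kb, and 49.8% of coding genes of 30 to 100 kb had a peak. Of genes for ubiquitin itself, UBB held 121 reads in its deepest summit (100 to 145), above every member, and RPS27A held 43. Of 9 genes for E1 enzymes and their subunits 8 had one, led by UBA1 with 53 reads, and among them ATG7 with 29, where the ATG7 peak lay on the opposite strand. HECT ligases had one in 21 of 27, with 64 reads in UBE3C and 62 in HUWE1, and cullins in 6 of 8, with 46 in CUL4A, 30 in CUL3 and 25 in CUL5.

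The other classes of deubiquitinase were set beside the USP genes and the 41.7% of coding genes with a peak, without a test. OTU proteases had a peak in 10 of 15 genes, with 36 reads in OTUB1, 33 in OTUD4 and 24 in OTUD5 and a median deepest summit of 16, beside 17.0 in USP genes. JAMM proteases had one in 6 of 7, with 26 reads in MPND, 23 in PSMD14 and 18 in STAMBP, and a median of 17.5. UCH proteases had one in 2 of 4, BAP1 with 28 reads and UCHL5 with 15, MINDY proteases in 2 of 4, MINDY3 with 16 and MINDY2 with 13, and Josephin proteases in 1 of 4, JOSD1 with 34.

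The label of the cells was checked against markers in the same list. Of 8 colon epithelial markers 7 had a peak, against 41.7% of coding genes. The deepest held 1147 reads in KRT8, 721 in KRT18 and 220 in EPCAM, and KRT20 had none. None of 5 hepatocyte and none of 5 blood markers had one, with median spans of 13.9 and 7.37 kb. Of coding genes under 10 kb 28.3% had a peak, and of those from 10 to 30 kb 42.1%. Lists this short make a weak check. Of 5 fibroblast markers COL1A2 had 1 peak of 10 reads. That peak was on the minus strand, and no strand was listed for COL1A2.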

How the data were processed

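The data were 1 peak list of an eCLIP of mouse PXR in LS174T cells. Adapters were handled with cutadapt, reads with BWA and peaks with MACS2, on hg38, per the submitters' processing notes, which give the names alone. Settings, and whether 1 or both replicates entered the list, are not given in the sources used here. The deposited score, fold (a ratio), −log10 p and −log10 q of each peak are the authors' values, and the score equalled the integer part of 10 times the −log10 q in all 21031 peaks. Peaks were called apart on each strand, as the deposited names show.

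Reads under a summit were recovered from 2 deposited columns: the fold, taken as summit reads over background with 1 added to each, and the −log10 p, taken as the Poisson tail above the summit reads at that background. The whole number of reads that satisfies both was kept. This succeeded in 21028 peaks, among them all 130 members. The method was also tested on data simulated with the same formulas. That tests the calculation and not whether the deposited columns follow these formulas. The background is given as reads in 10 kb, except in 1 member peak at the level common to the whole strand. Intervals at 95% are exact Poisson for reads, Wilson for shares and binomial order-statistic for medians. The Poisson intervals cover counting error only, and PCR copies are not independent molecules. The Wilson and order-statistic intervals treat genes or peaks as independent draws, which they are not. The depth of single libraries was not used here.

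Peaks were placed by centre in the RefSeq spans of GRCh38.p14, which shares coordinates with hg38. Gene strand and starts came from the RefSeq promoter table, matched by gene ID for 65 of 84 members. Spans do not separate exons from introns. Values were named for the 12 USP and 8 UBE2 genes with the deepest summits, the 5 of each family with most peaks or highest fold, and the genes of fixed groups; some genes are counted but not reported here by name. The members and lists were chosen with earlier results of these data known. Python 3.11.15, scipy 1.17.1 and statsmodels 0.14.6 were used.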

Additional observations from a re-analysis of the deposited data

How the results depend on the processing

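No paired analysis was possible because the values come from 1 peak list with no values of single libraries, so no replicate could be left out either. Counting any overlap of 1 base, 50% of the peak or the summit in place of the centre, leaving out peaks under 10 reads, peaks in several genes or narrow peaks, and using only peaks on the strand of the gene left every count within 1.5 times its value and every median and difference within its interval. Restricted to peaks whose −log10 q reached the median of the list (9.16), 19 USP genes had a peak, with 29 peaks at a median fold of 7.96 and 26.0 reads; UBE2 genes had 28 peaks at a median fold of 8.11 and 32.5 reads, and 18 genes had one. The stricter list holds deeper peaks by its construction. The share in USP genes minus that in UBE2 genes ran from -14.9 percentage points there to -3.37 in members of 30 to 100 kb, an alternative chosen after seeing the data, and was negative in all 9 alternatives run. With 250 in place of 500 bases, also chosen after seeing the data, 19 members had a peak at a start in place of 29. Of the USP peaks 13 held under 10 reads, so their exact depths are loose.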
